A study of Mus musculus with 9 samples.

Results

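Chromatin accessibility in tumor-specific CD8 T cells was compared between day 21 and day 4 after transfer, in 6 of the 9 deposited ATAC-seq peak lists. ATAC-seq marks open DNA by letting the Tn5 transposase insert sequencing adapters into it, and a peak is a stretch with more insertions than its surroundings. The lists were chosen by their titles, 3 for each day, and the other 3 lists of the series are from day 8. Each list is labelled as 1 sample of a tumor-draining lymph node, and the protocol used 50000 cells per reaction.

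Both days share the donor cells, the hosts and the gate, and differ by label only in the day. The donor cells were naive CD8 T cells, negative for CD44 and positive for GFP, from P14 mice that carry a TCF-1-GFP reporter. All P14 cells carry the same transgenic receptor, which recognises the lymphocytic choriomeningitis virus (LCMV) glycoprotein. In all, 500000 of them were given to C57BL/6 mice 8 days after engraftment of B16.F10 melanoma cells expressing that glycoprotein (B16.Gp). Cells were sorted as CD45.1+ CD44+ CD8 T cells, so both days hold only CD44+ cells. The genotype is given as WT and the strain as C57BL/6, with no age or sex, and the tags for genotype and time point are swapped. No label says if replicates are from different mice.

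A CD8 T cell that meets its antigen opens enhancers and promoters of effector genes, such as those for cytotoxic granules and interferon gamma, and of genes for growth and division. Memory-like cells keep open the loci of the transcription factors TCF-1 and LEF-1 and of lymph node homing receptors. Long exposure to antigen is known to open loci of inhibitory receptors and of the factor TOX.

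The day 4 lists held 19854, 19499 and 22250 peaks on chromosomes 1 to 19 and X, and the day 21 lists 47096, 46492 and 51671. Every day 21 list was longer than every day 4 list, 2.36-fold in the mean (exact permutation test over 20 arrangements, two-sided, p = 0.1, the smallest that 3 against 3 lists allow). Over the 15155 regions that every one of the 6 lists held, the summit stood in the median 10.9 ± 0.465 times above the smallest local background of its list on day 4 and 26.1 ± 1.46 times on day 21 (mean ± SD, n = 3). That background, which scales with sequencing depth, was 2.89 ± 0.424 tags on day 4 and 2.60 ± 0.414 on day 21. The median summit pileup at those regions was 29 to 35 fragments on day 4 and 63 to 75 on day 21. Read totals are unknown. In the full lists, 16092 regions (28.5% of 56414) were called in 3 of 3 day 21 and 0 of 3 day 4 lists and 5 (0.00886%) in the reverse case. The 3 day 8 lists were close to those of day 21, with 47513 to 50835 peaks. The day 4 libraries thus stand apart in list length and in signal over background, and day and library preparation cannot be told apart. Lists of the same day differed by less than sampling noise in their summit pileups, with a chi-square of 0.438 to 0.443 per region in the 6 same-day pairs against 1.05 to 1.18 between days. The names of the deposited lists also give the 3 lists of a day the same library number, so these may be parts of 1 library. If so, there is 1 independent sample per day, and the SDs and p-values given here describe only technical spread between lists.

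**Figure D1:**
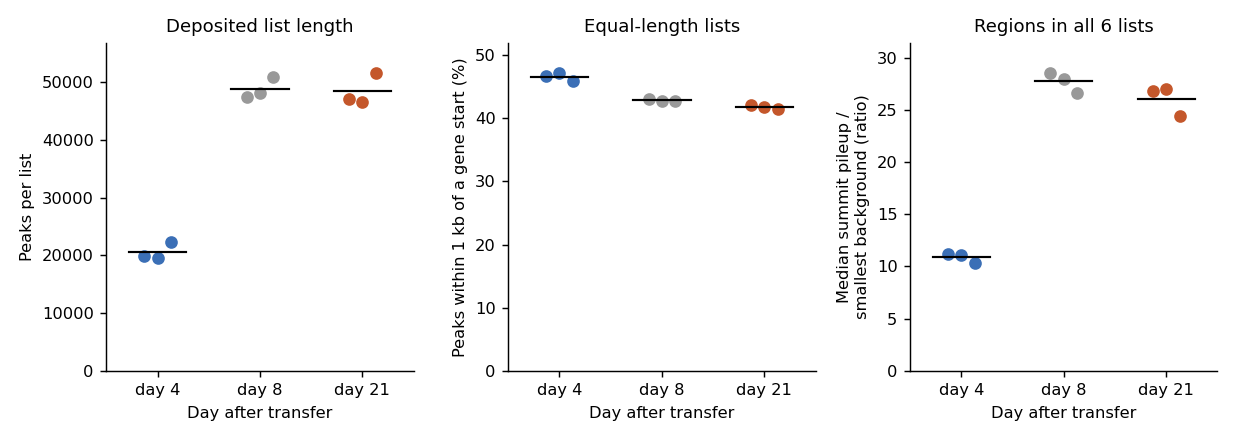
Peaks per deposited list (left), share of peaks within 1 kb of an annotated gene start after every list was reduced to its 19499 strongest peaks (middle) and median summit pileup over the smallest background of the list at regions called in all 6 lists (right, a ratio). Each point is 1 list and each line the mean of 3 lists; the day 4 lists sit at 19499 to 22250 peaks, and the day 8 and day 21 lists between 46492 and 51671.

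Because of the difference in length, each list was reduced to its 19499 strongest peaks by q value, the length of the shortest list. The weakest peak kept then had a −log10 q of 1.36 to 4.35 on day 4 and of 16.3 to 19.8 on day 21. Peaks of these equal-length lists lay within 1 kb of a gene start in 46.6% ± 0.715 of cases on day 4 and 41.8% ± 0.283 on day 21 (mean ± SD, n = 3). All 3 day 21 lists were below all 3 day 4 lists (exact permutation p = 0.1, the smallest possible). In the full lists the shares were 45.6% ± 2.09 and 25.6% ± 1.14. Shared regions over all regions (the Jaccard index) averaged 0.788 for lists of the same day and 0.712 for lists of different days (exact permutation p = 0.1 over 10 partitions, the smallest possible).

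A region was counted as gained when it had 1 of the 19499 strongest peaks in 3 of 3 day 21 lists and in 0 of 3 day 4 lists, and as lost in the reverse case. There were 895 gained regions (3.48% of the 25718 in any equal-length list) and 380 lost ones (1.48%). Gained regions were mostly away from gene starts: 7.42% lay within 1 kb of a start, 49.2% elsewhere in genes and 43.3% between genes. Of the lost regions, 37.3% lay near a start, against 36.7% of all regions in any equal-length list. No full day 4 list had a peak at 736 of the 895 gained regions, and all 3 full day 21 lists had a peak at 350 of the 380 lost regions. List length favours this contrast, so it is not read as a difference between the 2 classes. The 19499 peaks kept were 87.6% to 100% of a full day 4 list and 37.7% to 41.9% of a full day 21 list. On day 8, 374 gained regions were among the strongest peaks in 3 of 3 lists and 173 in none, and 203 lost regions were in none. With peaks ordered by fold enrichment in place of q value, 1758 regions were gained and 1504 lost, and with the 5000 strongest peaks 256 and 211. Under another matching rule, a set share of a peak's own length had to lie in a fixed window around the strongest summit of its region. By that rule 894 regions were gained and 1859 lost. Wide peaks meet it less easily. The median peak width in the equal-length lists was 414 ± 28.7 bases on day 4 and 702 ± 25.0 on day 21 (mean ± SD, n = 3). The part of peak width in the 1859 losses was not tested. How far the lower signal over background on day 4 contributes to the gained regions was not tested.

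**Figure D2:**
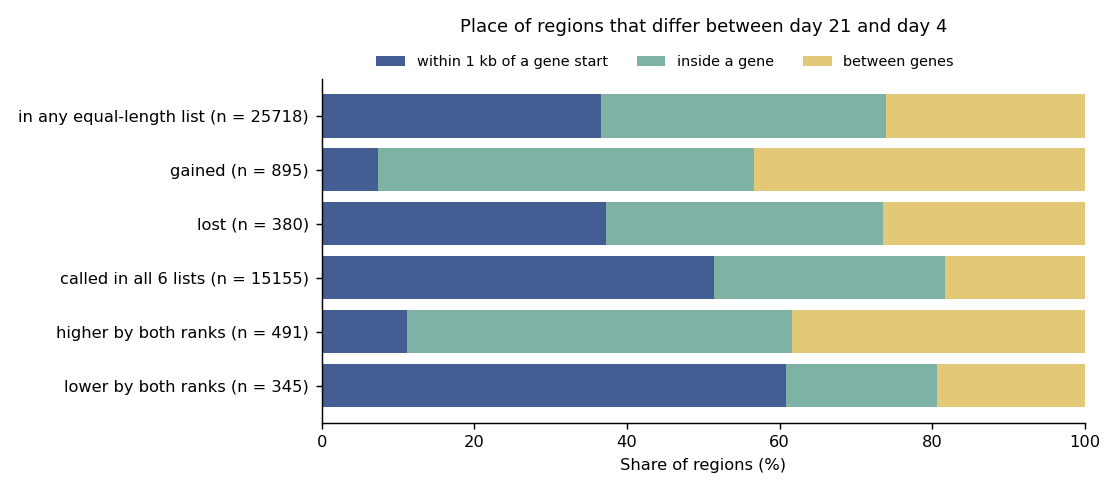
Share of regions (percent) within 1 kb of an annotated gene start, elsewhere inside a gene or between genes, for the regions gained or lost between equal-length lists and those that rose or fell in both ranks. Gained regions and regions higher by both ranks have few gene starts (7.42% and 11.1%), and 60.9% of regions lower by both ranks are near one; chromosome 18, for which no starts were used here, is left out of the shares.

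The regions called in all 6 lists were then ranked within each list, so that list length does not enter the rank. List length does enter the choice of regions. Of 15192 regions called in 3 of 3 day 4 lists 15155 were ranked, while 38948 were called in 3 of 3 day 21 lists. A region missed in a day 4 list cannot be called higher. The rank is a percentile from 0 to 100 of the fold enrichment at the summit over local background. A region was called when limma's adjusted p was under 0.05 and the day means differed by at least 10 percentile points. By this rule 1748 regions were higher on day 21 (11.5% of 15155) and 1992 lower (13.1%). Regions near starts moved down as a class, from a mean percentile of 57.7 on day 4 to 52.6 on day 21, while those between genes moved from 41.6 to 49.3. Local background moved with this rank. Relative to the smallest background of the list it went from a median of 1.19 to 1.75 at regions called higher, from 1.60 to 2.61 at all ranked regions and from 2.23 to 4.03 at regions called lower.

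A second rank, chosen after these values were seen, used the summit pileup alone, which does not divide by local background. By it 913 regions were higher (6.02% of 15154) and 760 lower (5.02%). Both ranks called 491 regions higher (3.24% of 15155) and 345 lower (2.28%). With list 1, 2 or 3 of day 21 left out, these counts were 197, 220 and 168 higher and 120, 151 and 106 lower. In the fit of all lists they make up 28.1% of the regions higher by fold enrichment and 17.3% of those lower. Only 1 region was called higher by fold enrichment and lower by pileup, and 2 the other way round. Of the 491 regions, 11.1% were near a start, against 60.9% of the 345 and 51.5% of all ranked regions. Below, "rose" and "fell" are used of a region only where both ranks called it, and the first adjusted p of a pair is for fold enrichment and the second for pileup.

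**Figure D3:**
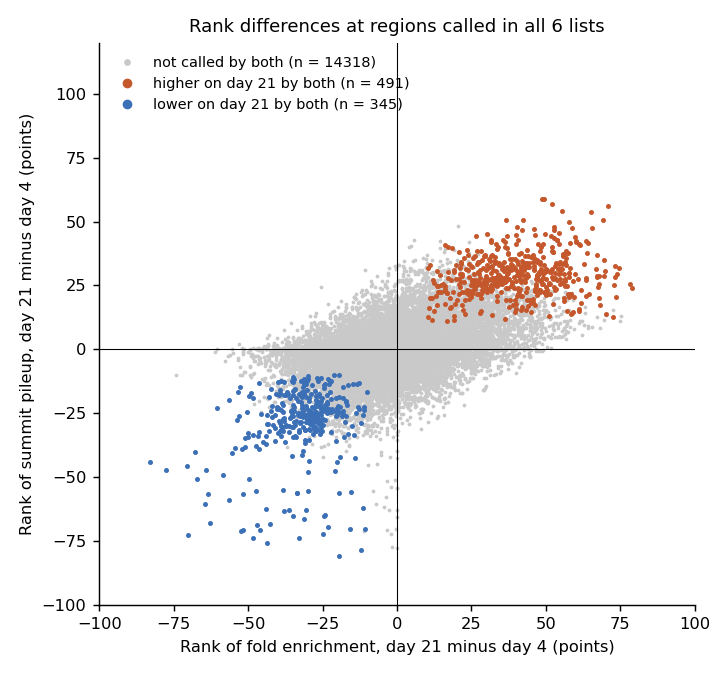
Difference between day 21 and day 4 in the percentile of fold enrichment (horizontal, points) and of summit pileup (vertical, points) at 15154 regions called in all 6 lists; each dot is 1 region. The 491 regions higher by both ranks fill the upper right, the 345 lower by both the lower left, and many regions that differ in fold enrichment lie near 0 in pileup.

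Loci of 34 core T cell genes held 99 ranked regions. Of these, 3 rose (3.03%, beside 3.24% of all ranked regions) and 0 fell (beside 2.28%). By fold enrichment, with or without pileup, 8 were called higher (8.08%) and 12 lower (12.1%). The 3 were at Id3, Ifng and Ccr7. Among the 176 regions of these loci in any equal-length list, 9 were gained (5.11%, beside 3.48%) and 3 lost (1.70%, beside 1.48%). A locus holds the regions over the gene and those nearest to it within 100 kb.

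Gzmb, which encodes the cytotoxic protease granzyme B, gained the region over its own start (chr14:56262079-56262663). No day 4 list had a peak there, though the full day 4 lists are little longer than the equal-length ones. Among their strongest peaks, 3 of 3 day 21 lists and 3 of 3 day 8 lists had this region. The locus had 2, 1 and 2 regions in the equal-length day 4 lists and 3, 4 and 3 in those of day 21, which do not overlap. Over all genes, 3.49% of 15637 had more regions on day 21 without overlap and 1.62% fewer. The single ranked region of Gzmb had a mean percentile of 25.3 on day 4 and 53.3 on day 21 and did not pass (adjusted p = 0.0812, limma).

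Ifng, the gene for interferon gamma, rose at a region 5.08 kb from its start (chr10:118435197-118435964). Its percentiles were 6.2, 3.36 and 8.78 in the day 4 lists and 44.7, 77.0 and 71.3 in those of day 21. All 3 day 21 lists were above all day 4 lists, by 58.2 points (SE 9.25, adjusted p = 0.00375) and by 21.8 points in pileup (adjusted p = 0.0118). Both calls held in 5 of 6 fits that leave out a list, the exception being without list 3 of day 21. A second Ifng region, 45.5 kb from the start (chr10:118486572-118487132), was gained. Over its 5 ranked regions the Ifng locus went from 48.4 ± 7.49 to 65.3 ± 8.76 (mean ± SD, n = 3) and did not pass (adjusted p = 0.107).

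Stat4 encodes the factor that acts downstream of the interleukin 12 receptor. Its start (chr1:52008162-52008934) had percentiles of 2.47, 7.63 and 11.9 on day 4 and of 22.8, 26.7 and 27.6 on day 21. The groups do not overlap, and the region rose by 18.3 points (SE 4.80, adjusted p = 0.0205) and by 39.8 in pileup (adjusted p = 0.00276). The call of both ranks held in 2 of 6 fits that leave out 1 list.

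The start windows of Gzmb and Stat4 are shown because they are effector gene starts with more signal on day 21. They stand beside the window of Ifit2, an interferon-induced gene whose start also rose, and those of Mki67 and Rplp0, whose starts fell. Each runs from 250 bases before to 50 after a start, 5′ to 3′ on the strand of the gene (RefSeq, GRCm38.p6): chr14:56262285-56262584, minus, for Gzmb; chr1:52007990-52008289, plus, for Stat4; chr19:34550444-34550743, plus, for the upstream of 2 Ifit2 starts; chr7:135716330-135716629, minus, for Mki67; chr5:115559217-115559516, plus, for Rplp0. Capitals mark every match to the searched motifs: AP-1 and Runx in Gzmb, E-box and IRF in Stat4, ETS in Ifit2 and none in Mki67 and Rplp0.
Gzmb: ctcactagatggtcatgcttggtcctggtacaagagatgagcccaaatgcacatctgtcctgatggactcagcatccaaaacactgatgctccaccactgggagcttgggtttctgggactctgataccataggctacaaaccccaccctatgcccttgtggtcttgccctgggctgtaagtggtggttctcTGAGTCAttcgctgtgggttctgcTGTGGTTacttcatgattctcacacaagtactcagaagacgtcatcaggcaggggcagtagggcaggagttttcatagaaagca
Stat4: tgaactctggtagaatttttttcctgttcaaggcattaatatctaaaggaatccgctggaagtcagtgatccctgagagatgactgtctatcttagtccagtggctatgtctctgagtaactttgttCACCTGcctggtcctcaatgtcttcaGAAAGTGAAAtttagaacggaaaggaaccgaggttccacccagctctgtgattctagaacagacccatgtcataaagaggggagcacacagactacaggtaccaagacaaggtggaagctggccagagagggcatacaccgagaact
Ifit2: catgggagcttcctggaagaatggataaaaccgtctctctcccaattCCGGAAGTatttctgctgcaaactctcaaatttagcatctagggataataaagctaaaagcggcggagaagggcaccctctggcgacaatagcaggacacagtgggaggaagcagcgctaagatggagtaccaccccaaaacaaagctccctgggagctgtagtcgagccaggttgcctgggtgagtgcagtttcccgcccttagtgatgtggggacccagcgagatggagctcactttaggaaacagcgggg
Mki67: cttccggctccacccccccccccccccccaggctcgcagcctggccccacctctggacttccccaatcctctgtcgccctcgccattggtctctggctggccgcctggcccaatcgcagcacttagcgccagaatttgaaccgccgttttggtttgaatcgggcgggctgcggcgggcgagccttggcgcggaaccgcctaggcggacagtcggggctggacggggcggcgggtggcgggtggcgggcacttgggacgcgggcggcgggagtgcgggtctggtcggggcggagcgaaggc
Rplp0: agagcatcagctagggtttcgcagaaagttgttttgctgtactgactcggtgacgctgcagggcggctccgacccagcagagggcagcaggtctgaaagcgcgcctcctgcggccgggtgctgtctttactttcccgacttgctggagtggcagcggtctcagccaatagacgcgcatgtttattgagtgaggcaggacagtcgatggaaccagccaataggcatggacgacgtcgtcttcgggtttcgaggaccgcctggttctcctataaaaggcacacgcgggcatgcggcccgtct

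The motifs were searched on both strands, and none of the printed matches overlap. They were AP-1 TGANTCA, ETS CCGGAAGT, Runx TGTGGTT, TCF/LEF CTTTGAT, T-box AGGTGTGA, NFAT TGGAAAA, NF-kB GGGAC followed at once by TTTCC, KLF GGGTGTGG, forkhead TGTTTAC, IRF GAAA and GAAA with any 2 bases between, CRE TGACGTCA, E-box CACCTG and YY1 AAGATGGC. Of 32585 start windows in the table, 7.85% held AP-1, 5.29% Runx, 20.3% the E-box, 3.45% IRF and 3.92% ETS. A match only says that these letters are in the window. The 5 windows differ more in base content, with 51% G or C in Gzmb, 46% in Stat4, 53% in Ifit2, 72.7% in Mki67 and 59% in Rplp0. The same holds for all called starts. The 56 windows over regions that rose had a median of 53.7% G or C and 11 CpG, and the 259 over regions that fell 65.3% and 26, beside 62.3% and 23 over all 9722 windows at ranked regions. Runx letters were in 8 of the 56 (14.3%), in 2.32% of the 259 and in 3.53% of the 9722. Over all 474 windows at regions called higher by fold enrichment the Runx share was 5.49%. These shares were not tested, and those of the other motifs are not given for these sets.

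Of the 28 genes of the effector list, 3 had a region that rose among 45 ranked regions (6.67%, beside 3.24% of all ranked regions), and none fell (beside 2.28%). Besides Ifng and Stat4 this was Fasl, the ligand that triggers death through Fas, 75.1 kb from its start (chr1:161712805-161713421). There the percentiles were 49.5, 51.4 and 68.7 on day 4 and 95.5, 94.4 and 98.7 on day 21, a rise of 39.7 points (SE 6.25, adjusted p = 0.00368 and 0.0109) that held in all fits but that without list 3 of day 21. Among 89 regions of the list in any equal-length list, 5 were gained (5.62%, beside 3.48% of all) and 0 lost (beside 1.48%). Apart from those of Gzmb and Ifng they were at Il12rb2, a chain of the interleukin 12 receptor, and 2 at Zeb2, which encodes a transcriptional repressor. Zeb2 had 1, 1 and 2 regions on day 4 and 3, 3 and 3 on day 21, without overlap, though both gained regions lie over 90 kb from its start, at 92.5 and 149.3 kb.

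By mean rank over a locus, 1 of 19 ranked effector genes was called higher by fold enrichment (5.26%, beside 7.47% of 10923 genes) and 2 lower (10.5%, beside 13.2%). The one higher was Ccl5, a chemokine gene, from 40.2 ± 4.81 to 59.8 ± 3.38. The lower ones were Id2, an inhibitor of E proteins, and Klrg1, a receptor of short-lived effector cells. Id2 went from 64.9 ± 10.5 to 30.1 ± 2.89 (adjusted p = 0.0104) and Klrg1 from 57.5 ± 8.99 to 27.4 ± 7.47 (adjusted p = 0.0177). In pileup neither was called, with differences of 4.62 and −14.7 points, and for Id2 the sign turned. Cx3cr1, a chemokine receptor gene, was called higher by pileup only (28.8 points, adjusted p = 0.0282, beside 2.33% of genes higher and 3.96% lower by that rank), against 18.6 points by fold enrichment. Prf1, the gene for perforin, was high on both days (83.2 ± 3.25 and 80.0 ± 5.72, adjusted p = 0.624). Tbx21, which encodes T-bet, had no region among the strongest peaks of any list.

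**Figure D4:**
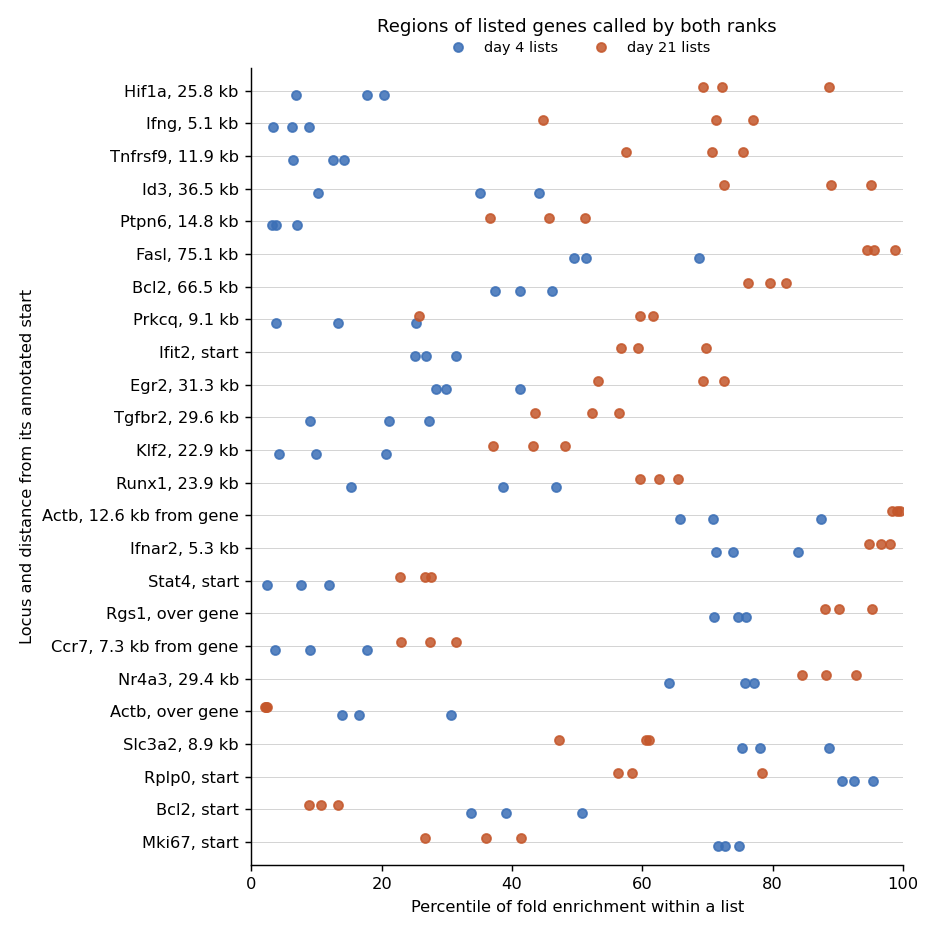
Percentile of fold enrichment within each list (0 to 100) at regions of listed T cell, division and constitutive genes that were called by both ranks; each point is 1 list, 3 per day, and labels give the distance from the annotated start of the gene or, where none was used, from the gene. At each region the day 21 lists are all above or all below the day 4 lists, at Prkcq only by 25.7 against 25.3, and the regions of Mki67, Bcl2 (start), Rplp0, Slc3a2 and Actb (over the gene) are lower on day 21.

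Among 30 memory and stemness genes, 4 of 113 ranked regions rose (3.54%, beside 3.24% of all ranked regions) and 1 fell (0.885%, beside 2.28%). Id3, which encodes an inhibitor of E proteins linked to memory cells, rose at a region 36.5 kb from its start (chr4:136106733-136107348). The percentiles were 10.2, 35.1 and 44.1 on day 4 and 95.1, 72.6 and 89.0 on day 21, without overlap, a rise of 55.8 points (SE 10.1, adjusted p = 0.00560 and 0.0141). The call of both ranks held in 3 of 6 fits with 1 list left out. Ccr7, the receptor that guides T cells into lymph nodes, rose by 17.1 points 7.34 kb from the gene (chr11:99136405-99136854; adjusted p = 0.0485 and 0.0115), which held in only 1 of those 6 fits. Klf2, a factor for recirculation of T cells, rose by 31.2 points 22.9 kb from its start (chr8:72295543-72296156; adjusted p = 0.0126 and 0.0195), held in 3 of 6. The starts of Id3 and Klf2 were called lower by fold enrichment (−20.4 and −53.3 points) and not by pileup (−0.525 and −3.24).

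At Bcl2, a survival gene, 2 regions moved in opposite directions. The region within the gene 66.5 kb from its start (chr1:106647234-106647828) had percentiles of 41.3, 37.4 and 46.2 on day 4 and of 82.1, 76.2 and 79.6 on day 21. It rose by 37.7 points (SE 6.84, adjusted p = 0.00549 and 0.0181). The region over the start (chr1:106713740-106714933) had 50.7, 39.1 and 33.7 on day 4 and 13.3, 10.7 and 8.88 on day 21 and fell by 30.2 (SE 6.86, adjusted p = 0.0121 and 0.0430). Neither pair overlaps between days. Both calls held in 3 of 6 fits with a list left out for the region within the gene and in 1 of 6 for the start.

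Tcf7, which encodes TCF-1, averaged 27.6 ± 2.95 on day 4 and 19.1 ± 0.988 on day 21 over 6 ranked regions (adjusted p = 0.179), with a pileup difference of 4.97 of the opposite sign. Lef1 averaged 40.2 ± 1.24 and 47.2 ± 0.627 (adjusted p = 0.317), and Bach2, a repressor of effector genes, 40.6 ± 1.34 and 38.9 ± 2.56. None of the 3 gained or lost a region. S1pr1, a receptor for exit from lymph nodes, and Cxcr3, a chemokine receptor, differed by 13.6 and −25.6 points and did not pass (adjusted p = 0.115 and 0.0596). Bcl6, a repressor in memory-like cells, had no ranked region. By mean rank over a locus, 2 of 27 ranked genes of the list were called lower by fold enrichment (7.41%, beside 13.2% of all genes). None was called higher (beside 7.47%). The 2 were Zeb1, a repressor of differentiation (−14.9 points, −6.70 in pileup), and Foxo1. Foxo1, a factor for T cell quiescence, went from 53.1 ± 8.44 to 29.2 ± 2.77 by fold enrichment (adjusted p = 0.0251) but differed by −4.45 points in pileup (adjusted p = 0.677). Its call was lost in 5 of the 6 fits that leave out a list (adjusted p up to 0.188, without list 1 of day 4). Slamf6, a surface marker of stem-like cells, and Eomes, a T-box factor, each gained 1 region, 48.4 kb (chr1:171965881-171966671) and 87.1 kb (chr9:118390525-118391095) from their starts. Of the list as a whole, 5 of 225 regions were gained (2.22%, beside 3.48% of all) and 2 lost (0.889%, beside 1.48%).

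Of 65 ranked regions at 28 genes of inhibitory receptors and exhaustion, 2 rose (3.08%, beside 3.24% of all ranked regions) and 0 fell (beside 2.28%). Tnfrsf9, which encodes the costimulatory receptor 4-1BB, rose within the gene 11.8 kb from its start (chr4:150939851-150940574). Its percentiles were 12.5, 6.43 and 14.2 on day 4 and 57.5, 70.6 and 75.4 on day 21. The days do not overlap, and the rise of 56.8 points (SE 7.87, adjusted p = 0.00272 and 0.00352) held in all 6 fits with a list left out. Nr4a3, an orphan receptor induced by antigen, rose by 16.2 points within the gene (chr4:48074683-48075616; adjusted p = 0.0435 and 0.0104), which held in 1 of 6.

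The list had 7 gained regions among 113 (6.19%, beside 3.48% of all) and 1 lost (0.885%, beside 1.48%). Pdcd1, which encodes PD-1, gained a region 1.00 kb from its start (chr1:94053558-94053945), found on day 8 among the strongest peaks of 1 list. Over 3 ranked regions it averaged 79.8 ± 5.32 on day 4 and 87.2 ± 3.46 on day 21, high on both days (adjusted p = 0.215). Tox had 5 regions in each equal-length day 4 list and 6, 7 and 6 on day 21, without overlap. Its mean percentile was 33.0 ± 0.622 and 47.2 ± 8.17 (adjusted p = 0.112). Ctla4, an inhibitory receptor, gained 1 region 25.9 kb from its start (chr1:60882737-60883163) and lost 1 within the gene (chr1:60913331-60913726). The other gained regions were 2 at Bhlhe40 and 1 each at Ikzf2, Nr4a3 and Nfatc1. Havcr2 and Lag3, the genes of the inhibitory receptors TIM-3 and LAG-3, had no ranked region. In the equal-length lists Havcr2 had 0 regions on day 4 and 0 to 2 on day 21, and Lag3 0 to 1 and 0 to 2, with overlap. By mean rank over a locus, 1 of 24 ranked genes was called higher (4.17%, beside 7.47% of all genes) and 4 lower (16.7%, beside 13.2%). Cd160 was the one higher (15.7 points). Lax1 and Maf had the largest called differences downward (−35.8 and −34.6), none of the 3 by pileup. Tigit and Entpd1 overlapped between days in number of regions, and neither was called by rank (adjusted p = 0.240 and 0.482).

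Of 28 genes of early activation and growth, Myc, a driver of T cell growth, had 3, 1 and 1 regions in the equal-length day 4 lists and 0 in each of day 21, without overlap. The lost region of its locus (chr15:61984909-61985709) was still called in the full day 21 lists. By fold enrichment it ranked near the bottom on both days, at 2.36 ± 2.17 and 1.13 ± 0.493, and by pileup at 36.9 and 33.0. Irf4, a factor induced by receptor signals, and Junb, an AP-1 subunit, each lost 1 region, 6.29 and 0.911 kb from their starts. In rank, 2 of 60 regions of the list rose (3.33%, beside 3.24% of all ranked regions) and 1 fell (1.67%, beside 2.28%). Hif1a, the oxygen-sensing factor, rose 25.8 kb from its start (chr12:73881336-73882065), where the percentiles were 17.7, 6.86 and 20.3 on day 4 and 72.2, 69.3 and 88.6 on day 21. This rise of 61.7 points (SE 8.36, adjusted p = 0.00259 and 0.0232) held in 3 of 6 fits with a list left out. Egr2, a factor induced by antigen, rose by 31.9 points 31.3 kb from its start (chr10:67503296-67504225; adjusted p = 0.0205 and 0.0146), held in 2 of 6. Slc3a2, an amino acid transporter subunit, fell by 24.4 points at the start of a neighbouring RNA gene, Snhg1, held in 1 of 6. By mean rank over the locus, the genes Cd69, Egr1, Jun, Fosl2 and Rel were called lower by fold enrichment (5 of 25, 20%, beside 13.2% of all genes), 1 was called higher (4%, beside 7.47%), and none of these 5 by pileup, where they differed by −10.7 to 1.87 points. Il2ra, the interleukin 2 receptor alpha chain, gained 1 region 50.1 kb from its start (chr2:11692895-11693476), over the start of another annotated gene. Batf, Nr4a1, Prdm1 and Irf4 did not pass in rank, with differences of 6.10, −4.34, −6.58 and 5.05 points.

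Among 24 genes of T cell receptor signalling, 2 of 81 ranked regions rose (2.47%, beside 3.24% of all ranked regions) and 0 fell (beside 2.28%). Ptpn6, which encodes the phosphatase SHP-1, rose 14.8 kb from its start (chr6:124723066-124723934). Its percentiles were 7.06, 3.20 and 3.75 on day 4 and 51.2, 36.7 and 45.7 on day 21. The days are far apart, and the rise of 39.9 points (SE 6.49, adjusted p = 0.00394 and 0.00227) held in all 6 fits with a list left out. The region at Prkcq, a kinase gene of the receptor pathway, rose by 34.9 points with hardly a gap between the days, with 25.3 as the highest value on day 4 and 25.7 as the lowest on day 21, held in 2 of 6 fits. Gained regions lay at Rasgrp1, Fyn and Cblb (3 of 154, 1.95%, beside 3.48% of all) and lost ones at Prkcq and Ptpn22 (2 of 154, 1.30%, beside 1.48%). By mean rank, Nfatc3 and Ptpn22 were called lower by fold enrichment (−43.3 and −19.5 points) and not by pileup (−2.55 and 4.62). They were 2 of 22 ranked genes (9.09%, beside 13.2% of all genes), and 0 were higher (beside 7.47%).

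Cytokine receptor and STAT genes, 25 in all, had 3 of 58 ranked regions that rose (5.17%, beside 3.24% of all ranked regions). They were at Stat4, Tgfbr2 and Ifnar2, and 0 regions fell (beside 2.28%). Tgfbr2, a receptor for transforming growth factor beta, was among the 5 loci of all genes with the most gained regions, 3 in number. It had 8 regions in each equal-length day 4 list and 11, 9 and 10 on day 21. One more of its regions, 29.6 kb from the start (chr9:116145205-116145730), rose from 21.1, 9.01 and 27.3 to 43.5, 52.2 and 56.4 (31.6 points, SE 7.93, adjusted p = 0.0178 and 0.0260). That rise held in 2 of 6 fits with a list left out. Ifnar2, a chain of the type I interferon receptor, rose by 20.1 points 5.33 kb from its start (chr16:91366449-91367450; adjusted p = 0.00748 and 0.0202), held in 3 of 6. Il7r, the interleukin 7 receptor, went from 27.7 ± 17.7 to 11.9 ± 6.34 and did not pass (adjusted p = 0.209). By mean rank, 3 of 24 ranked genes of the list were called lower by fold enrichment (12.5%, beside 13.2% of all genes) and 0 higher (beside 7.47%). Stat3 and Ifngr2 were among the 3 (−31.2 and −28.9 points) and were not called by pileup.

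Of 19 interferon response genes, Ifit2 rose at its start (chr19:34550319-34551209), 1 of 19 ranked regions (5.26%, beside 3.24% of all ranked regions), and none fell (beside 2.28%). The percentiles were 31.4, 26.7 and 25.1 on day 4 and 69.8, 56.8 and 59.3 on day 21. The days do not overlap, and the difference was 34.2 points (SE 7.57, adjusted p = 0.0110 and 0.0154). It held in 3 of 6 fits, being lost without each day 21 list in turn. Irf7, Irf1 and the Ifit2 locus each gained a region (3 of 32, 9.38%, beside 3.48% of all regions).

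Genes of cell division had 0 of 26 ranked regions that rose (beside 3.24% of all ranked regions) and 1 that fell (3.85%, beside 2.28%). This was the start of Mki67, which encodes the proliferation marker Ki-67 (chr7:135715686-135717041). It had percentiles of 71.6, 72.6 and 74.9 on day 4 and of 36.0, 26.6 and 41.4 on day 21. All day 21 lists were below all day 4 lists, by 38.3 points (SE 7.41, adjusted p = 0.00672 and 0.0132), which held in 4 of 6 fits with a list left out. By fold enrichment, 5 of 26 regions of the list were lower (19.2%, beside 13.1%) and 0 higher (beside 11.5%). Of 19 ranked genes, 4 were lower (21.1%, beside 13.2%) and 1 higher (5.26%, beside 7.47%). By pileup, 2 of the 19 genes were higher (beside 2.33% of all genes) and 1 lower (beside 3.96%). The median pileup difference was 0.420 points, beside −1.07 over all genes. The gene higher by fold enrichment was Mcm2, a subunit of the replication helicase, called by both ranks of its locus (13.4 and 26.7 points). Cdkn1b, a brake on the cell cycle, was called lower by fold enrichment only (−27.9 points, −2.87 in pileup). E2f2, a cell cycle factor, had 0 regions in each equal-length day 4 list and 2, 3 and 2 on day 21. Of 34 regions of the list in any equal-length list, 2 were gained (5.88%, beside 3.48% of all), at E2f2 and Cdk1. None was lost (beside 1.48%).

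Of 23 ranked genes with constitutive functions, 7 were called lower by fold enrichment (30.4%, beside 13.2% of all genes) and 0 higher, with a median of −7.25 points beside −1.99 over all genes. B2m and Tbp had the largest called differences (−38.9 and −36.3). By pileup 1 of 23 was lower and 0 higher, with a median of −3.29 beside −1.07. Among the 31 ranked regions of these loci, both ranks called 1 higher (3.23%, beside 3.24% of all) and 2 lower (6.45%, beside 2.28%). Actb, the gene for beta-actin, had one of each: a region 12.6 kb from the gene (chr5:142920541-142921215) rose by 24.3 points, and one over the gene (chr5:142905636-142906244) fell by 18.1, each held in 3 of 6 fits with a list left out. The gene lower by pileup was Rplp0, a ribosomal protein gene, whose start (chr5:115559132-115560069) had percentiles of 95.4, 92.5 and 90.7 on day 4 and of 56.3, 78.3 and 58.4 on day 21. The fall of 28.5 points (SE 6.36, adjusted p = 0.0115 and 0.00806) held in all 6 fits with a list left out.

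**Figure D5:**
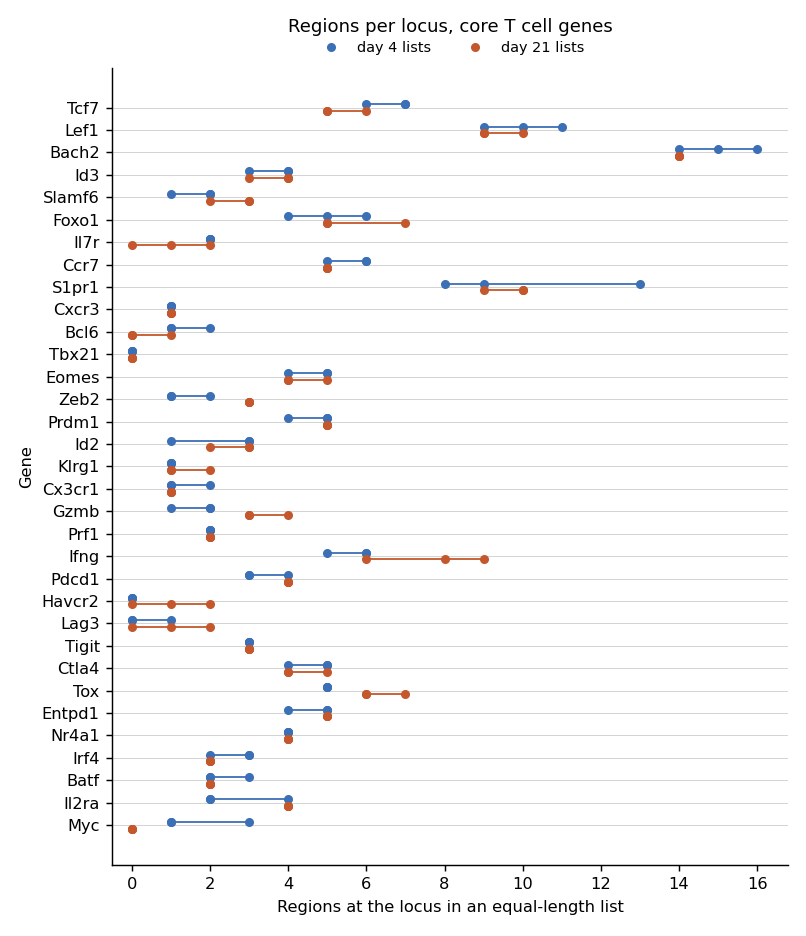
Number of regions at the core loci shown, among the 19499 strongest peaks of a list; points are the 3 lists of a day, joined by a line from the lowest to the highest. The days do not overlap at Zeb2, Gzmb and Tox, which have more regions on day 21, and at Myc, which has 0 on day 21.

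Loci of CD8 T cell identity were open on both days. All 17 matched markers had a region in every equal-length list, including Cd8a, Cd8b1, Cd3e, Cd3d and Cd3g, and their summed regions ranged from 69 to 73 on day 4 and from 63 to 71 on day 21. In rank 0 of 16 were called over the locus (beside 7.47% of all genes higher and 13.2% lower by fold enrichment). Of 54 ranked regions 1 rose (1.85%, beside 3.24%), at Runx1 (29.1 points, held in 1 of 6 fits with a list left out). Of 43 ranked regions of residency genes 2 rose (4.65%, beside 3.24% of all), at Klf2 and Rgs1, and 0 fell (beside 2.28%). By fold enrichment 5 were higher (11.6%, beside 11.5%) and 4 lower (9.30%, beside 13.1%). Over the locus, 1 of 14 residency genes was called higher by fold enrichment, Itga1 (23.6 points, 9.33 in pileup), and 1 lower, Cd69 (−17.5 points, −3.50 in pileup). Each is 7.14% of these genes, beside 7.47% of all genes higher and 13.2% lower. Of 10 B cell markers, Cd79a, Cd79b and Vpreb3 had 0 regions in all 6 equal-length lists, and the list summed to 2 to 3 regions on each day. The 1 ranked B cell gene stood at a percentile of 99.9 on both days. In the full lists the B cell markers summed to 2 to 3 regions on day 4 and 15 to 20 on day 21. The CD8 identity markers summed there to 69 to 88 and 206 to 225. Of 11 myeloid and dendritic markers, Csf1r, Itgax, Cd14, Adgre1 and Clec9a were at 0. The summed regions of that list ranged from 9 to 10 on day 4 and from 11 to 12 on day 21, Itgam going from 1 to 3 in every list. Natural killer markers summed to 11 to 15 and 9 to 10, CD4 and regulatory T cell markers to 18 to 19 and 20 to 21, with Ncr1 at 0. Stromal and endothelial markers summed to 3 to 5 and 5 to 7, melanoma markers to 4 to 6 on each day with Dct and Pax3 at 0, and erythroid and platelet markers to 2 in every list. Over a locus, Zbtb46, Cd40lg and Itga2b were called higher by fold enrichment (17.0, 48.6 and 22.6 points) and Tyrobp and Pecam1 lower (−27.7 and −18.9), none by pileup. Of 6 ranked regions of the myeloid and dendritic list, 1 rose (16.7%, beside 3.24%), within Zbtb46 (chr2:181410671-181411418), by 31.4 points (adjusted p = 0.0131 and 0.0497), held in 1 of 6 fits with a list left out. Of 15 regions of that list in any equal-length list, 2 were gained, both at Itgam (13.3%, beside 3.48%). Xcr1 lost 1 (6.67%, beside 1.48%). Of 34 regions of the CD4 and regulatory list, 3 were gained (8.82%, beside 3.48%), at Cd4, Ctla4 and Il2ra. The part of other cell types in these results was not tested.

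Among ranked regions with a gene within 100 kb, the 10 largest differences upward in fold enrichment ranged from 72.5 to 78.8 points. They were at Pik3cg, Ifi211, Gm5127, Fam114a1, 1700021F07Rik, Zbtb21, Zfp281, Anp32b, Apol9a and Lrrc28, all but Gm5127 and Apol9a being called by pileup too. The region nearest to Pik3cg, the gamma catalytic subunit of phosphoinositide 3-kinase (chr12:32284784-32285541), went from 6.2, 24.0 and 5.32 to 89.3, 94.8 and 87.8 (78.8 points, SE 8.00, adjusted p = 0.00169 and 0.00455). Ifi211, an interferon-induced gene of the pyrin and HIN domain family, rose within the gene (chr1:173905929-173906525) from 23.4, 24.9 and 1.32 to 91.3, 98.3 and 95.0. Both held in all 6 fits with a list left out, as did Fam114a1, Zbtb21 and Anp32b, while 1700021F07Rik held in 5 and Zfp281 and Lrrc28 in 2. Ifi211 lies in a cluster of similar genes, so its reads may be shared with copies.

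The 10 strongest gained regions with a gene within 100 kb were at Ikzf2, Bend7, Rftn2, Car5b, Alpk2, Clnk, Slc12a8, Dip2a, Snx29 and Ext1. Ikzf2 encodes the Ikaros family factor Helios, and its gained region lies 76.8 kb from the gene (chr1:69453883-69454383) with 0 day 4 lists and 3 of 3 day 8 lists. The loci with most gained regions besides Tgfbr2 were Aff3, Arl8b, Dennd1a and Iqsec1 with 3 each. Of the loci with 2, only the first by symbol are named, Abi2, Actr3, Adgrl2, Akr1cl and Ap1s3. Aff3 had 1 region in each equal-length day 4 list and 5, 4 and 5 on day 21. All 10 but Actr3 and Adgrl2 had more regions on day 21 without overlap, which their choice by gained regions favours.

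The largest differences downward were at Aida, Rimbp3, Tcte2, D430019H16Rik, Nwd1, Dlgap2, Apbb1ip, Fbxw4, Tmem123 and H2-K1, from −60.5 to −74.1 points. Of these, 7 fell by both ranks and held in all 6 fits with a list left out. Aida, Tmem123 and H2-K1 were not called by pileup (differences of −9.96, −0.980 and 0.0264). Aida missed only the 10-point minimum (limma, adjusted p = 0.00146 in pileup). H2-K1 encodes a class I histocompatibility molecule, and its start (chr17:34000196-34002298) went from 87.2, 88.0 and 85.8 to 33.2, 22.9 and 23.6 by fold enrichment while its local background went from 8.38 to 13.3 times the smallest. The part of the background in this was not tested. Of the 7, all but that of Tcte2 are 264 to 535 bases long, beside a median of 901 over ranked regions. Fbxw4 is an example, with 338 bases (chr19:45649973-45650310), at 99.4, 97.1 and 98.2 on day 4 and 32.9, 32.6 and 41.2 on day 21.

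The 10 strongest lost regions with a gene within 100 kb were at Fbxw4, Pcnx2, Tmem267, Dlgap2, Rimbp3, LOC100504180, Cspg5, Gphn, Mex3c and D430019H16Rik. Each of the 10 was still called in all 3 full day 21 lists. Loci with most lost regions were Sp140 and Tmem267 with 4 each and Gm40035 and Sp110 with 3. Those with 2 were taken in order of symbol, 4931408C20Rik, A530032D15Rik, Akap13, Gm7592, LOC100504180 and Larp1. Sp140 had 6, 6 and 8 regions on day 4 and 1 in each day 21 list. Sp140 and Sp110, nuclear body genes, overlap on chromosome 1 and share regions, and A530032D15Rik and Gm7592 lie nearby on the same chromosome. No source used here says what was done with reads that map to more than 1 copy, so the assignment of these losses to a gene is uncertain.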

How the data were processed

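ATAC-seq was analysed in 6 lists, day 4 and day 21 with 3 each, grouped by title. Per the submitters' processing notes, the tools were MACS2, deepTools 2.0, BWA 0.7.15 and Picard and the build mm10; which tool did what is not stated there. Nothing used here gives the read filters, the Tn5 shift or the peak caller's settings. The authors deposited a separate peak list for each library. A deposited peak carries a score, a fold enrichment (ratio of its summit to background nearby in that library), a −log10 p and a −log10 q. These are the authors' values and were used only to rank or filter peaks within a list. Peaks on chromosomes 1 to 19 and X, 206862 in the 6 lists, were merged into 56414 regions where they shared at least 1 base.

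Read totals are not in the lists, so depth is unknown apart from whole-number summit pileups and local backgrounds. These were recovered from fold and −log10 p under the Poisson formula of MACS2 (tolerance 0.001), in 100% of the peaks tried. In R 4.3.3, limma 3.58.1 fitted the percentiles on day with its robust and trend options, and p-values were adjusted by Benjamini-Hochberg over all 15155 regions or 10923 genes. In 3 simulated draws of this fit, 161, 168 and 165 of 200 regions changed 2-fold were recovered, with 0 to 2 unchanged regions called. The draws used the scatter between lists of the same day, which may be only technical. They therefore do not show how many calls would be false between independent samples. Genes came from 21631 protein-coding RefSeq genes of GRCm38.p6, the assembly of mm10. Starts came from 32619 windows of the same build, which cover 17274 of those genes. No starts were used for chromosome 18, so its 1727 regions are left out of shares by place. A region at a start missing from the table counts as inside or between genes, so shares near starts are too low.

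Of 312 symbols in 19 lists, 308 matched. Some are counted in their lists but not reported here by name. The members and lists were chosen with earlier results of these data known. Named are the core genes and, among regions with a gene within 100 kb, the 10 largest rank differences each way. The 10 strongest gained and lost regions under the same limit are also named. So are the 10 loci with most of each, ties taken in order of symbol. Per list, the members with the largest called differences are named. Regions of listed genes called by both ranks were added after their values were seen. The deviations of same-numbered lists from their day means correlated at −0.00552, −0.0135 and 0.0206, so the numbers do not pair lists. Other steps ran in Python 3.11.15 (scipy 1.17.1, numpy 2.4.6, pandas 2.3.3), and plots were drawn with matplotlib 3.10.9.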

Additional observations from a re-analysis of the deposited data

How the results depend on the processing

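With the 10000 strongest peaks, 425 regions were gained and 334 lost, and 301 genes had more regions without overlap and 270 fewer. With 5000, 256 regions were gained and 211 lost, and 220 genes had more and 200 fewer. At the list length used above, 895 regions were gained and 380 lost, and 545 genes had more and 253 fewer. The excess of gains over losses was thus much smaller in the shorter lists. Ordering peaks by fold enrichment in place of q gave 1758 gained and 1504 lost regions, and 1013 genes with more and 844 with fewer. Requiring a set share of a peak's length to lie around the strongest summit gave 894 gained and 1859 lost regions. Wide peaks meet that rule less easily, and day 21 peaks were the wider ones. The part of width in this excess of losses was not tested. Ranking by −log10 q gave 850 regions higher and 697 lower and 184 genes higher and 262 lower; ranking by summit pileup, an alternative chosen after seeing the data like the call of both ranks, gave 913, 760, 255 and 433. By pileup, H2-K1 (0.0264 points) and Id2 (4.62) reversed, as did the called genes Egr1 (1.87), Jun (0.708), Ptpn22 (4.62), Nfatc1 (7.84), Ifngr2 (2.99) and Itga2b (−2.75).

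Leaving out 1 list at a time gave 490 to 636 lost and 1142 to 1319 gained regions, and 326 to 398 genes with fewer and 722 to 814 with more regions; these counts are higher because fewer lists must agree. By rank it gave 793 to 1664 regions higher and 853 to 1855 lower, and 335 to 740 genes higher and 726 to 1233 lower. Both ranks called 168 to 456 regions higher and 106 to 313 lower, fewest without list 3 of day 21. Of 25 regions of listed genes called by both ranks, 3 kept both calls in all 6 such fits. Calls were lost most often without a day 21 list. Peaks per list stayed 2.28 to 2.46-fold, the share near starts −5.21 to −4.50 points and the Jaccard difference 0.0583 to 0.0966.

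With the replicate block, 1693 regions were higher and 1761 lower, 689 genes higher and 1140 lower, and by both ranks 457 and 330 regions; the list numbers are only numbers. Summits on day 4 rest on a median of 29 to 35 fragments against 63 to 75 on day 21, so day 4 ranks are the less precise.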
